A study of Mus musculus with 5 samples.

Results

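The Gnas imprinted domain is a stretch of 70 kb on mouse chromosome 2, here positions 174105000 to 174175000 of the mm9 build. All CpG cytosines in that range were taken, chosen by position alone and not by their methylation. They were 572 positions listed in at least 1 library, out of 2328518 on the autosomes, and 93 of them, out of 280635, had at least 10 reads in all 5 libraries. A CpG has a cytosine on each strand, and each counts as its own position. The libraries are extended reduced representation bisulfite sequencing of genomic DNA from LSK cells, the Lin- Sca1+ Kit+ cells of bone marrow, among which blood stem cells and early progenitors are found. There were 3 libraries from mice with a knock-in of the Idh1-R132H allele and 2 from wild-type mice, numbered knock-in 1 to 3 and wild-type 1 and 2, both groups on a mixed 129Ola and C57Bl/6J background. The labels name no other allele and no treatment. They give neither the age of the mice nor whether each library came from its own animal, so a p-value here is relative to differences among libraries that may be technical only. The files hold no expression, so the cell label could not be checked against marker genes, and reads are not assigned to a parental copy.

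An imprinted gene is used from only one parental copy, and the copies carry different DNA methylation. The Gnas domain is known for several overlapping transcripts that start at alternative first exons and share the later exons of Gnas. Nesp encodes the neuroendocrine secretory protein Nesp55, comes from the maternal copy, and its promoter is methylated on the paternal copy. Nespas is a non-coding antisense RNA, and Gnasxl encodes XLalphas, a large form of the stimulatory G protein alpha subunit. Both come from the paternal copy, and the control region they share is methylated on the maternal copy from the egg onward. Exon 1A starts a non-coding transcript of the paternal copy and is also methylated on the maternal copy. The Gnas promoter itself makes Gs alpha, which couples hormone receptors to adenylyl cyclase, and is known to stay free of methylation on both copies even where 1 copy is silent. CpGs methylated on a single parental copy are read as a mixture of methylated and unmethylated molecules.

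The stretches before 3 of these start sites are shown because the comparison that follows sets a lightly methylated promoter beside mixed ones, and their CpG content differs. Each is the plus strand of RefSeq, 250 bases ending just before the start, 5′ to 3′, with the CpG dinucleotides in capitals. Coordinates are of the GRCm38.p6 build, so these windows were not placed on the mm9 positions of the methylation data. RefSeq lists 4 start sites under the symbol Gnas, and they were named by their order on the plus strand: Nesp first, then a pair for exon 1A, then Gnas. The Nesp window is chr2:174284070-174284319, that of the first exon 1A start is chr2:174327499-174327748, and that of Gnas is chr2:174329756-174330005.
Nesp: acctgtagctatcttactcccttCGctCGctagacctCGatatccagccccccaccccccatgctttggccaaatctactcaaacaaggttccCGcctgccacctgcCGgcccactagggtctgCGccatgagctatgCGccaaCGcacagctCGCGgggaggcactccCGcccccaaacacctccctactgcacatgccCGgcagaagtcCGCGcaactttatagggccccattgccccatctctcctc
exon 1A: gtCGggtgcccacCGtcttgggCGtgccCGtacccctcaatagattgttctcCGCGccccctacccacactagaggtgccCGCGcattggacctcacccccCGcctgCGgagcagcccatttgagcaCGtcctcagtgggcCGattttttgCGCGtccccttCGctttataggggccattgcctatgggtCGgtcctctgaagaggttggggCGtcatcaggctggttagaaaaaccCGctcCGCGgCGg
Gnas: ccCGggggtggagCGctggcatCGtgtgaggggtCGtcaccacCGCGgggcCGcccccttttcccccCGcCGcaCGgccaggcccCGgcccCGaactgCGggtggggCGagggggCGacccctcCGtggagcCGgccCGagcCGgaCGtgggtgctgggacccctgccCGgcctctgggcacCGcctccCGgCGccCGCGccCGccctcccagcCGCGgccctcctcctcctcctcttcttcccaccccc
The Gnas window held 29 CpGs, the exon 1A window 21 and the Nesp window 14, against a median of 6 over the 32851 promoter windows in RefSeq. CCGG, the site at which MspI cuts the DNA for this assay, occurred 6 times before Gnas, 2 times before Nesp and 0 times before exon 1A. It was present in 47.1% of all promoter windows of that length. The letters TGCCGC, part of the motif known for ZFP57, a factor that binds methylated imprinting marks, were searched on both strands and were in none of these windows, against 8.68% of all. The second exon 1A start lies 19 bases after the first, and Gnas starts 2238 bases after that.

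No mm9 annotation was used here, so the domain was divided into 7 segments by position, named after the transcripts placed there in the description of the domain. The Nesp end (174105000 to 174112999) had 64 listed positions, of which 14 were shared by all libraries. The Nespas and Gnasxl control region (174119000 to 174126999) had 186 and 39, and exon 1A (174152000 to 174154999) had 85 and 4. For the Gnas promoter (174155000 to 174157999) these numbers were 172 and 31, and for the Gnas body (174158000 to 174175000) 33 and 5. The stretch between Nesp and the control region held 17 listed positions and that between the control region and exon 1A held 15, with none shared. Coverage was uneven: knock-in 1, 2 and 3 listed 361, 195 and 512 positions of the domain, and wild-type 1 and 2 listed 124 and 354. Median coverage at the 93 shared positions was 75, 27 and 137 reads in the Idh1-R132H libraries and 16 and 39 reads in wild-type. Knock-in 1 and 3 and wild-type 2 are called the 3 deeper libraries, and 276 positions of the domain had 10 reads in each of these.

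**Figure D1:**
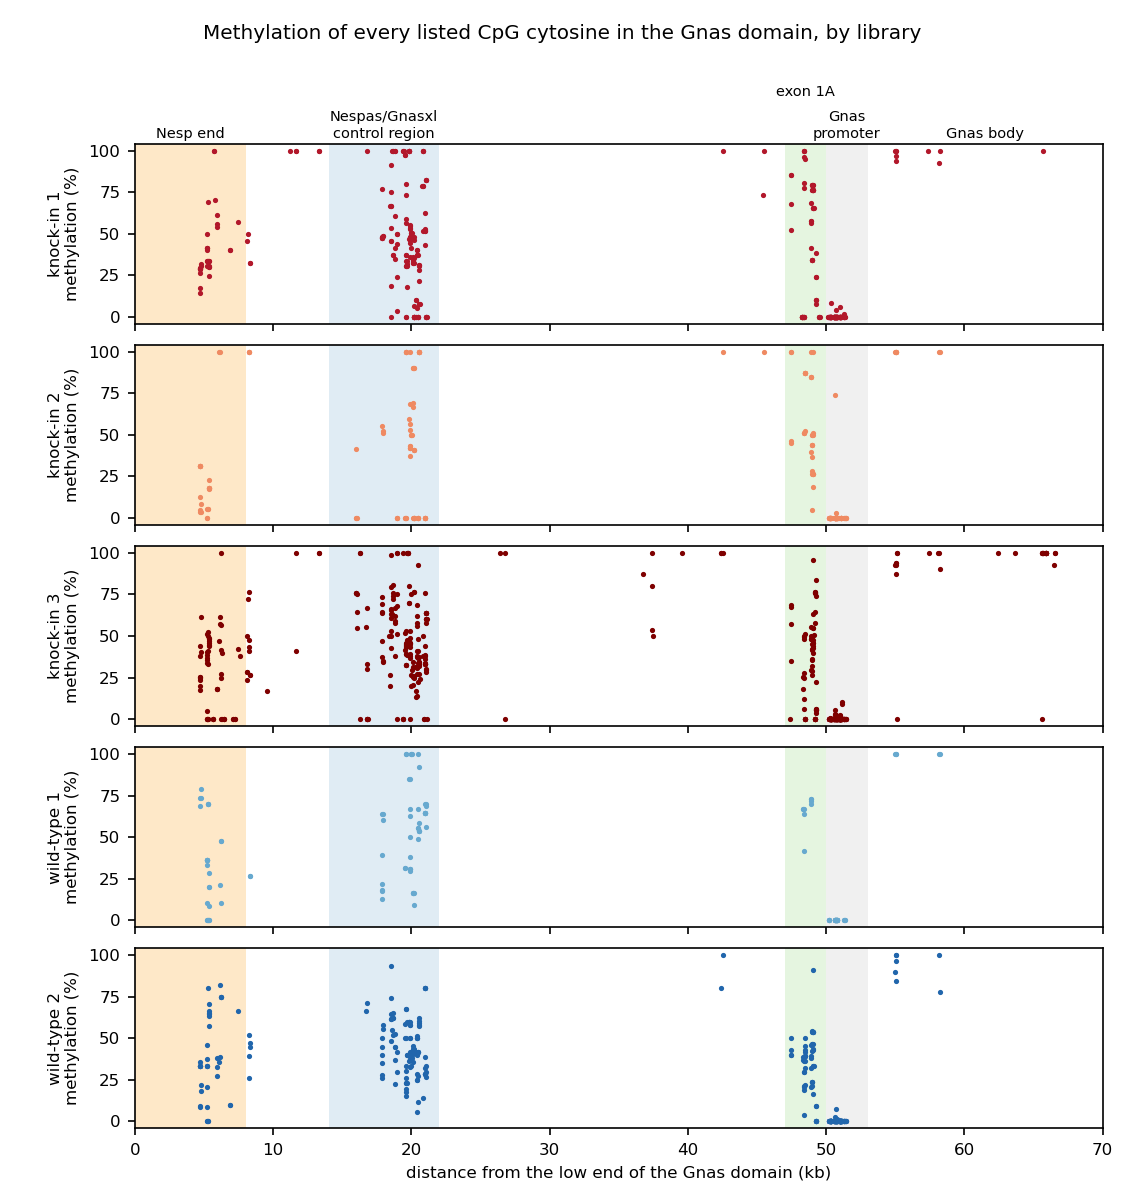
Each point is a CpG cytosine listed in that library, with methylation in percent against distance in kb from the low end of the domain; the panels are the 5 libraries and the shaded bands are the Nesp end, the control region, exon 1A and the Gnas promoter. In every panel the first 3 bands hold mixed levels, the Gnas promoter lies near 0 apart from a single position in knock-in 2, and the few points of the Gnas body lie mostly near 100%.

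The Gnas promoter was almost free of methylated reads in both genotypes. A segment's level in a library is the unweighted mean over its shared CpGs. The promoter's level over 31 CpGs was 0.182%, 0.0949% and 0.0315% in knock-in 1, 2 and 3, and 0% and 0.124% in wild-type 1 and 2. These are 4 methylated reads of 2249, 1 of 1055, 2 of 4945, 0 of 471 and 2 of 1632. The count of 0 in wild-type 1 allows a level of up to 0.637%, so the order of the libraries was not detectable at this depth. Knock-in averaged 0.103% ± 0.0757 (SD, n = 3) and wild-type 0.0621% ± 0.0879 (SD, n = 2).

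All positions that a library listed in the promoter gave a similar picture. Knock-in 1 had 12 methylated reads of 4455, or 0.269% (95% Wilson interval 0.154 to 0.470%), and without its highest position, at 8.54%, it had 5 of 4373, or 0.114% (0.0488 to 0.267%). Knock-in 3 had 35 of 16388, or 0.214% (0.154 to 0.297%), and without its highest position 32 of 16359, or 0.196%. Wild-type 2 had 3 of 5501, or 0.0545% (0.0185 to 0.160%), and without its highest position 2 of 5487, or 0.0364%. These intervals cover read counting only, since reads of amplified DNA carry no molecular identifiers and may copy the same molecule. Knock-in 2 stood apart with 18 of 1800 reads, but 17 of these fell on a single position, 174155659 on the plus strand, at 73.9% of 23 reads. Without it the library had 1 methylated read of 1777. Wild-type 1 did not list this position, which was at 0% in knock-in 1 and wild-type 2 and at 2.56% in knock-in 3, and the minus strand of that CpG was at 0% in all 5 libraries.

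Exon 1A, which ends where the promoter segment begins, was methylated at intermediate to high levels at its shared CpGs. Its 4 shared CpGs (174153898 to 174153934, plus strand) averaged 60.2%, 88.5% and 50.4% in knock-in 1, 2 and 3, and 71.7% and 38.9% in wild-type 1 and 2. The groups overlapped, with knock-in 2 highest and wild-type 2 lowest. Its best covered CpG, 174153906, was at 57.9%, 100% and 50.0% in the Idh1-R132H libraries and at 72.7% and 38.0% in wild-type. The next, 174153912, was at 56.6%, 84.6%, 48.3%, 72.7% and 32.0% in the same order. These 4 CpGs lie close enough together to share reads, so they are not independent measurements. Over the 45 positions of exon 1A covered in the 3 deeper libraries the level was lower, at 51.2% and 36.8% in knock-in 1 and 3 and 30.5% in wild-type 2. Some plus-strand stretches of the segment were at 0%. These included 174153237 to 174153397 in knock-in 1 (10 to 16 reads) and 174154181 to 174154218 in knock-in 3 (14 or 15 reads). Minus-strand positions listed within these stretches were at 100% in knock-in 1 and at 57.6 to 75.8% in knock-in 3.

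Exon 1A exceeded the Gnas promoter in 5 of 5 libraries. The difference within a library was 60.0, 88.4 and 50.4 percentage points in the Idh1-R132H libraries and 71.7 and 38.8 points in wild-type, a mean of 61.9 ± 19.2 points (SD, n = 5). An exact 2-sided sign-flip permutation test gave p = 0.0625, the smallest that 5 libraries allow, and 0.09375 after Benjamini-Hochberg adjustment over 3 pairs of segments. No pair could therefore pass 0.05. The stretches beside the control region had no shared CpG and entered no pair.

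The drop from exon 1A into the promoter fell within 1259 bases in 4 of 5 libraries. Going toward the promoter, the last position at 20% or more was 174154282 in knock-in 1 (38.4%) and 3 (22.4%), 174154092 in wild-type 2 (33.3%) and 174153934 in wild-type 1 (70%). Levels under 10% then began at 174154506 in knock-in 1, at 174155193 in knock-in 3 and wild-type 1, and at 174154239 in wild-type 2. Where they began followed what each library listed: the last high and the first low position were 224 and 911 bases apart in knock-in 1 and 3, 1259 in wild-type 1 and 147 in wild-type 2. In these 4 libraries all listed positions from there to the end of the promoter segment were under 10%, except 1 at 10.3% in knock-in 3. In knock-in 2 the last high position was the single one in the promoter, 174155659. At the edge the strands differed: at 174154239 the plus strand was at 5.66% in knock-in 3 and the minus cytosine of that CpG, listed in this library alone, was at 83.9%. The last position listed in the promoter segment, 174156363 or 174156428, was still under 10% in every library. No library listed a position between 174156428 and 174160019, so where the low stretch ended was not measured. The next listed position was 174160019 in all 5, 3591 to 3656 bases on, with 90 to 100% there.

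**Figure D2:**
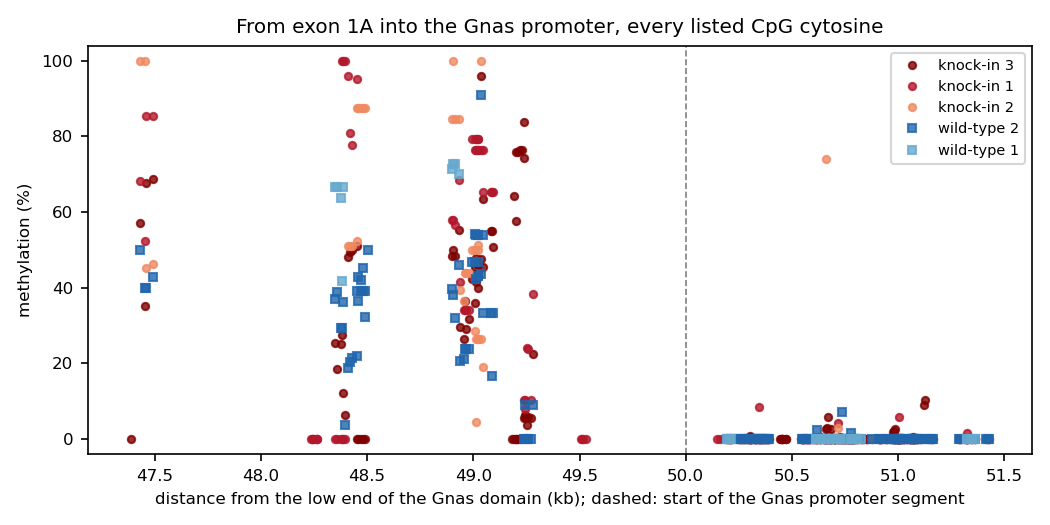
Methylation in percent of every listed CpG cytosine against distance in kb from the low end of the domain, for the end of exon 1A and the Gnas promoter; circles are knock-in and squares wild-type libraries, and the dashed line marks the start of the promoter segment. Levels are scattered before 49.3 kb and lie close to 0 past the line, except the position at 73.9% in knock-in 2.

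The Gnas body was highly methylated. Over 5 shared CpGs it was at 96.6%, 100% and 92.9% in the Idh1-R132H libraries and 100% and 93.6% in wild-type. Its best covered CpGs were 174160019, at 100%, 100% and 92.7% in the Idh1-R132H libraries and 100% and 90% in wild-type, and 174160043, at 96.7%, 100%, 87.4%, 100% and 100%. The groups overlapped at the segment level.

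In the Nespas and Gnasxl control region, 38 of 39 shared CpGs had a mean over the libraries of 20 to 80%, though single stretches of it were at 0% or 100% in some libraries. Over 39 shared CpGs the level was 42.6%, 44.3% and 36.6% in knock-in 1, 2 and 3, and 56.3% and 44.7% in wild-type 1 and 2. All 3 knock-in libraries lay below both wild-type libraries, though knock-in 2 and wild-type 2 differed by less than a point. Knock-in averaged 41.1% ± 4.05 (SD, n = 3) and wild-type 50.5% ± 8.21 (SD, n = 2), a difference of -9.38 points. By an exact 2-sided permutation test over the 10 ways to choose 3 of 5 libraries, p was 0.1, the smallest possible, and 0.5 after adjustment over 5 segments. The order did not hold over the 92 positions of the 3 deeper libraries, where knock-in 1 and 3 were at 48.5% and 46.5% and wild-type 2 at 42.9%, a difference of 4.58 points. Without wild-type 1 the difference over the 39 CpGs was -3.58 points, and with at least 20 reads in all libraries it was -2.07 points. It was -17.9 points on the plus strand alone and -2.11 points on the minus strand alone, and -12.7 points as the mean over groups of neighbouring CpGs.

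Within the control region the 2 best covered CpGs, by reads in the shallowest library, were both on the plus strand. They were tied at 27 reads with their neighbours 174124892 and 174124894. At 174124856 the level was 47.1%, 59.5% and 47.1% in the Idh1-R132H libraries and 85.2% and 36.6% in wild-type. At 174124886 it was 47.8%, 37.5% and 38.9% in the Idh1-R132H libraries and 66.7% and 39.0% in wild-type. Wild-type 1 was highest at both, while wild-type 2 was lowest at the first and within the range of the knock-in libraries at the second. Over the neighbouring minus-strand CpGs at 174124887 to 174124930, wild-type 1 was instead lowest at 35.1%, and the other libraries lay between 44.3% and 52.8%. Elsewhere in the control region its place varied on both strands. On the minus strand it was highest at 174122896 to 174122932 (62.4%) and lowest at 174125119 to 174125155 (15.2%). On the plus strand, at 174124504 to 174124517, it was at 31.6%, above knock-in 2 only.

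The Nesp end had a lower mean CpG level than the control region in 5 of 5 libraries. Its 14 shared CpGs, all on the minus strand, averaged 31.2%, 10.7% and 33.3% in knock-in 1, 2 and 3, and 27.3% and 32.5% in wild-type 1 and 2. Knock-in 2 was far below the other libraries, which lay between 27.3% and 33.3%. The difference from the control region was -11.4, -33.6 and -3.23 points in the Idh1-R132H libraries and -29.0 and -12.3 points in wild-type, a mean of -17.9 ± 12.8 points (SD, n = 5). The exact sign-flip permutation test gave p = 0.0625, adjusted 0.09375. With reads pooled over each segment the mean difference was -12.8 points (exact permutation p = 0.1875) and knock-in 3 went the other way, with 549 methylated reads of 1289 at the Nesp end and 1663 of 4469 in the control region. At its best covered CpGs, 174109727 and 174109772, wild-type 1 was at 73.7% and knock-in 2 at 3.85% and 3.45%. Knock-in 1 and 3 were at 29.4% and 44.0% at the first and at 30.8% and 40.2% at the second, and wild-type 2 was at 8.70% and 18.5%.

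Exon 1A also lay above the control region in 4 of 5 libraries, by 17.6, 44.2 and 13.9 points in the Idh1-R132H libraries and 15.4 points in wild-type 1. Wild-type 2 differed by -5.83 points. The mean of 17.0 ± 17.8 points (SD, n = 5) had an exact sign-flip permutation p of 0.125, also after adjustment. With each library's own positions, which are not the same in all libraries, the mean difference was 0.826 points. It was 14.2 points with at least 20 reads in all libraries and 18.1 points with reads pooled over each segment. Leaving out each library in turn gave 10.3 to 22.8 points. The part of the covered CpGs in this was not tested.

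The stretches between the segments could be described only in part. Between Nesp and the control region, 2 neighbouring positions, 174113296 and 174113317, were at 32.1% in knock-in 1 and at 26.8% and 26.7% in knock-in 3. They were at 26.7% in wild-type 1 and at 47.2% and 44.4% in wild-type 2. Just before these, positions 174113221 to 174113242 were at 100% in knock-in 2, at 41.1 to 76.3% in knock-in 3 and at 26.1 to 52.2% in wild-type 2. Nearer the control region, 174118278 and 174118281 were at 100% in the libraries knock-in 1 and 3, which listed them. Between the control region and exon 1A, position 174147578 was at 100% in the 4 libraries that listed it. It had 18 to 63 reads there. The other 14 positions of that stretch had 10 to 16 reads each and ran from 0% to 100%.

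**Figure D3:**
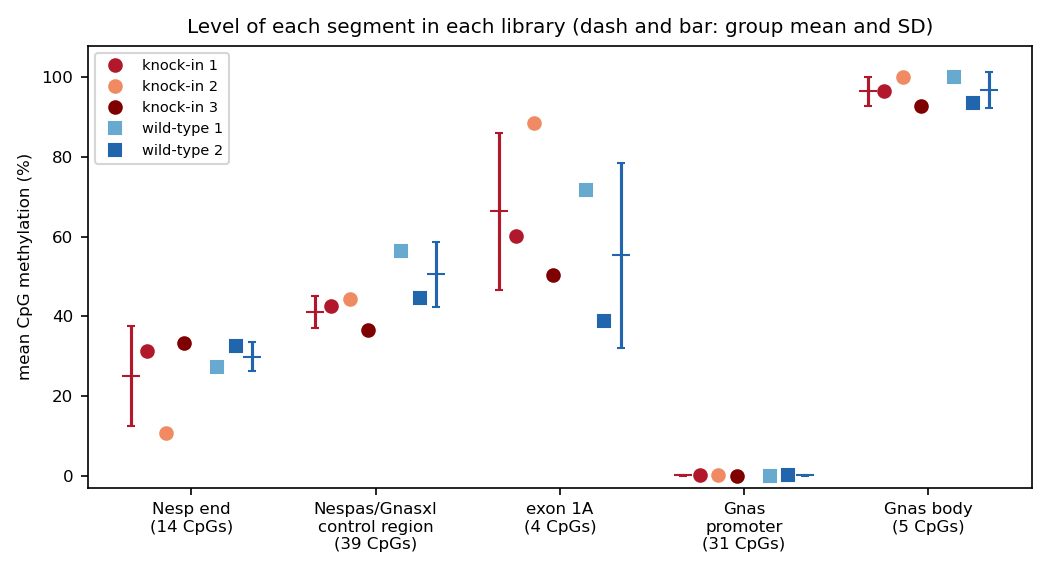
Mean CpG methylation in percent of each measured segment, over positions with 10 reads in all 5 libraries (number below each name); circles are knock-in and squares wild-type libraries, and the dash with a bar is the group mean with its SD. The Gnas promoter stays below 0.2% and the Gnas body above 92%, and the knock-in libraries lie below both wild-type libraries in the control region only.

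No difference in a segment's level between the genotypes passed the test, and outside the control region the groups overlapped in every measured segment. Knock-in minus wild-type was -4.81 points at the Nesp end (25.1% ± 12.51, SD, n = 3, against 29.9% ± 3.63, SD, n = 2; exact permutation p = 0.9). It was 11.1 points at exon 1A (66.4% ± 19.7 against 55.3% ± 23.2; exact permutation p = 0.6). It was 0.0407 points at the Gnas promoter (exact permutation p = 0.5) and -0.307 points in the Gnas body (96.5% ± 3.58 against 96.8% ± 4.56; exact permutation p = 0.8). Adjusted values for these 4 segments were 0.9. Since the design allows no p under 0.1, no difference could pass 0.05. The sign at exon 1A turned to -5.35 points without wild-type 2 and to -3.91 points with each library's own positions. At the Nesp end it turned to 2.38 points without knock-in 2, and at the Gnas promoter to -0.0214 points without wild-type 1.

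No difference between the genotypes was called in tiles of 1 kb either, where a level is the percent of methylated reads over the shared CpGs. Of 33 tiles with a listed position, 9 had at least 3 shared CpGs and were tested. edgeR's quasi-likelihood test on methylated and unmethylated reads, fitted over 24319 autosomal tiles, called 0 of the 9 (adjusted p = 1 in each), against a background of 0% of all tiles. None of the 9 had an unadjusted p under 0.05 in edgeR, against 387 of all 24319 tiles, or in limma, against 889 of the 22029 that limma took. The smallest of the 9 in edgeR was 0.528. In 0 of the 9 did all knock-in libraries lie on one side of both wild-type libraries by 10 points or more. Of all autosomal tiles, 2.37% were separated in that way upward in knock-in and 0.621% downward.

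The tile of the control region with most CpGs, 174125000 (19 CpGs, 240 to 2282 reads per library), was at 34.5%, 45.8% and 32.6% in the Idh1-R132H libraries and 53.5% and 43.3% in wild-type. Its neighbour 174124000 (16 CpGs) was at 51.9%, 35.8% and 43.3% against 54.5% and 48.2%, and 174122000 (3 CpGs) at 58.1%, 52.99% and 35.5% against 62.5% and 47.3%. In each of these the groups overlapped. At the Nesp end, tile 174109000 (4 CpGs) ranged widely within both groups, with 30.4%, 4.55% and 46.1% in the Idh1-R132H libraries and 73.97% and 14.9% in wild-type. Tile 174110000 (10 CpGs) was at 30.5%, 14.6% and 41.5% in the Idh1-R132H libraries and 8.33% and 47.6% in wild-type, so the wild-type libraries changed places between these neighbouring tiles.

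The tile of exon 1A, 174153000, rests on the 4 CpGs given above, and read-weighted levels were 60.2%, 88.5%, 50.4%, 71.8% and 38.9% in the same order. In the promoter, tile 174155000 (27 CpGs) lay between 0% and 0.151%. Tile 174156000 (4 CpGs) was at 0.386% in knock-in 1 and 0% in the other libraries. Tile 174160000 of the Gnas body (3 CpGs) lay between 91.4% and 100%. These 3 tiles differed little between libraries, unlike the tiles of the Nesp end and exon 1A.

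Among single CpGs, edgeR called 0 of 93 at an adjusted p under 0.05, against a background of 0.000356% of 280635. None of the 93 had an unadjusted p under 0.05 by that test, against 747 of all 280635. limma on arcsine square root levels took the 69 whose level was not equal in all libraries and called 0 as well. Of these 69, 4 had an unadjusted p under 0.05 in limma, against 5218 of 128045 autosomal CpGs. Fisher's exact test on reads pooled by group, which ignores the spread between libraries, called 6 of 93, all lower in knock-in. Of all 280635 CpGs it called 3.11% in either direction, 2884 lower and 5840 higher in knock-in. The genotypes did not overlap at 7 of the 93 CpGs, with knock-in higher at 0 (background 2.38%) and lower at 7 (7.53%, background 0.987%). All 7 were among the 52 CpGs at 20 to 80%, where they make 13.5%, against 5.56% of autosomal CpGs in that class. For the opposite direction the shares in that class were 0% and 13.4%.

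Those 7 CpGs lay close together, in 3 groups of neighbouring CpGs on a strand, joined where gaps were at most 50 bases, so that the CpGs of a group can share reads. At 174124575 to 174124584 (minus strand, 2 CpGs) the level was 37.0%, 0% and 44.0% in the Idh1-R132H libraries and 100% and 67.9% in wild-type, on 46, 42, 58, 11 and 28 reads. At 174125448 to 174125478 (plus strand, 4 CpGs, of which 3 did not overlap) it was 0%, 0% and 33.4% against 56.7% and 34.2%, on medians of 29, 11, 124, 45 and 12 reads. The third, 174122896 to 174122932 (minus strand), held 2 such CpGs, but its mean levels overlapped between the groups. In the first the knock-in libraries lay below the wild-type libraries by more than 20 points, and in the second knock-in 3 and wild-type 2 differed by less than a point. The 6 CpGs called on pooled reads lay in the first of these groups (2), in the second (2), in 174110322 to 174110353 at the Nesp end (1) and in 174125514 to 174125553 (1).

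Levels moved between such groups of CpGs within a library by more than read counting gives. There were 14 groups in the Nesp end, the control region and exon 1A. In knock-in 3, the deepest library, they ran from 1.25% to 50.4%, and 13 of 14 were at 20 to 80%. In knock-in 2 they ran from 0% to 100%, with 6 under 10% and 1 over 90%. The SD between groups was 22.1, 36.9 and 12.98 points in knock-in 1, 2 and 3 and 30.8 and 18.4 points in wild-type 1 and 2. Read counting alone, around a common mean of the groups in a library, would give 7.19, 10.6, 5.29, 12.2 and 9.66 points. The SD between groups therefore includes the differences in level between the segments. The spread was greatest in the 2 libraries with fewest listed positions, knock-in 2 and wild-type 1, and the part of depth in it was not tested.

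Some groups of the control region and the Nesp end show this, chosen after their values were seen. At 174124504 to 174124517 (plus strand) the level was 97.6%, 0% and 46.8% in the Idh1-R132H libraries and 31.6% and 54.4% in wild-type. At 174125514 to 174125553 (minus strand) it was 28.5%, 100% and 34.4% in the Idh1-R132H libraries and 62.4% and 59.3% in wild-type. The latter begins next to the group at 174125448, where knock-in 2 was at 0%, while knock-in 3 was at 33.4% and 34.4% in this pair. The group 174110229 to 174110254 (minus strand) at the Nesp end was low in 4 libraries, at 3.95%, 1.25%, 2.63% and 2.17%, and at 33.3% in knock-in 1.

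**Figure D4:**
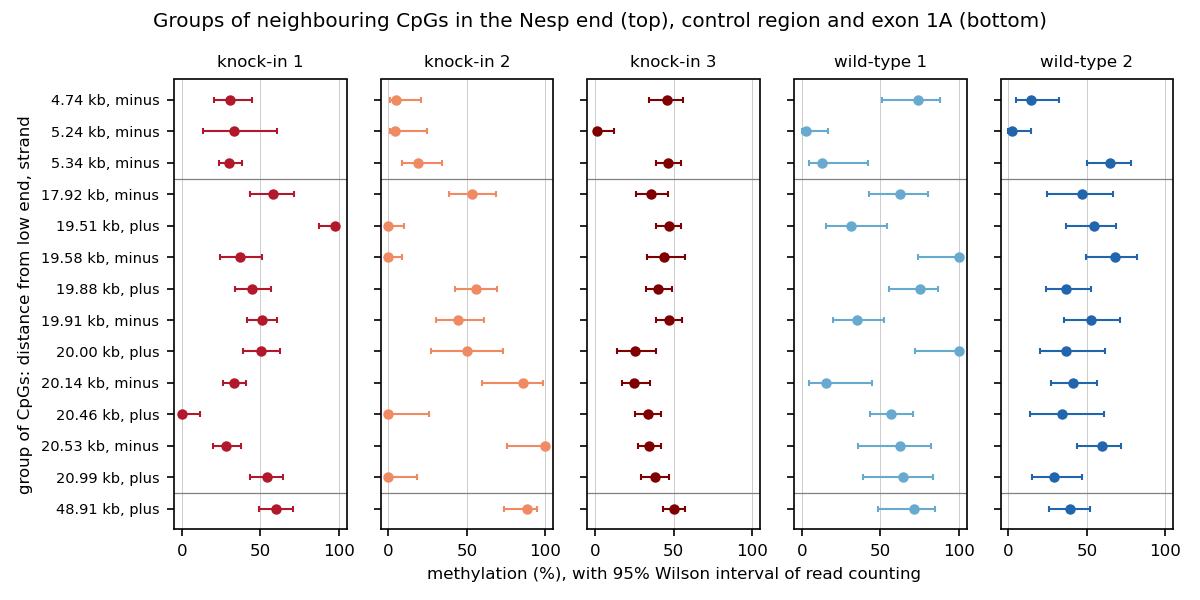
Methylation in percent of the 14 groups of neighbouring CpGs (rows, by distance in kb from the low end and strand) in each library (panels), with 95% Wilson intervals from the median coverage of the group; lines divide the Nesp end, the control region and exon 1A. Points lie mostly between 20 and 80% in knock-in 3 and wild-type 2, and spread to 0 or 100% in knock-in 2 and wild-type 1.

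The cytosines of one CpG on both strands gave a further reading of the same sites. For each library, CpGs with both strands listed were taken where the mean of both strands in that library was 20 to 80%. CpGs whose strands were both low or both high could not enter, so the choice depends on the difference that it then measures. Among such CpGs of the domain, the strands differed on average by 32.2 points in knock-in 1 (28 CpGs), 43.5 in knock-in 2 (16) and 26.6 in knock-in 3 (53). In wild-type 1 (6 CpGs) and 2 (33) they differed by 41.3 and 17.3 points. Over all autosomal CpGs chosen in the same way the averages were 43.3, 55.2, 45.2, 35.8 and 43.4 points. Median coverage of these CpGs was 28.5, 38, 61, 22.5 and 32 reads in the domain and 24, 20, 35, 16 and 25 reads over the autosomes, and its part in these differences was not tested. At the CpG of 174124886 in the control region, the plus strand was at 47.8%, 37.5%, 38.9%, 66.7% and 39.0% and the minus strand at 44.6%, 52.9%, 53.2%, 50.0% and 41.7%. At the CpG of 174110239 at the Nesp end, chosen after its values were seen, the plus strand was at 50.0%, 51.3%, 33.3% and 45.8% in the 4 libraries that listed it. The minus strand was at 33.3%, 5.00%, 10.5% and 8.70% in these and at 5.26% in knock-in 2.

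The domain held a larger share of mixed CpGs than the autosomes did. Of its 93 shared CpGs, 52 (55.9%) had a mean level of 20 to 80%, against 4.74% of 280635 autosomal CpGs. They were 10 of 14 at the Nesp end, 38 of 39 in the control region and 4 of 4 in exon 1A, and 0 of 31 in the promoter and 0 of 5 in the body. By tiles, 6 of 9 were at 20 to 80%, against 6.38% of all tested tiles. Among tiles with at least 30 listed positions these were 4 of 6, against 1.74% of 11229. Within 100 kb of the domain, 4 tiles were tested, all past its high end, at 174241000 to 174272999. Of these, 0 were at 20 to 80%, 2 being at 0.0162% and 0.0445% and the other 2 at 95.98% and 96.6%. No tile was tested on the low side.

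Mixed CpGs of the domain varied between libraries about as much as mixed CpGs elsewhere. The mean absolute difference between pairs of libraries was 27.7 points over the 52 CpGs and 27.0 points over 13316 autosomal CpGs of that class. Among the 3 deeper libraries it was 17.2 and 17.0 points. Single readings under 10% or over 90% made up 15.0% of those in the domain and 23.1% of those elsewhere.

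The tiles most like exon 1A elsewhere were found by the root mean square difference of the 5 libraries' levels, among 8433 tiles with at least 10 shared CpGs. The nearest started at 180394000 on chromosome 2, with 60.8%, 77.6% and 61.7% in the Idh1-R132H libraries and 68.7% and 60.7% in wild-type, a difference of 12.1 points. It was followed by tiles at 16647000 on chromosome 7 (12.7 points), 4964000 on chromosome 11 (13.6 points), 49660000 on chromosome 12 (14.3 points) and 56267000 on chromosome 17 (14.5 points).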

How the data were processed

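Genomic DNA, 5 ng per library per the labels' protocols, was cut with MspI, ligated to methylated adapters, size-selected and treated with bisulfite, which turns unmethylated cytosine into a base read as T. Bismark, CASAVA 1.7 and the build mm9 are named in the submitters' processing notes; duplicate removal and the version of Bismark are not given in the sources used here. Per the file headers, each deposited line gives a CpG cytosine with its coverage, a whole read count of at least 10, and the percent of reads with C and with T. Methylated and unmethylated reads were computed as coverage times those deposited percentages. CpG positions were joined by position and strand. Groups were taken from the labelled genotype. The edgeR and limma tests of tiles were run on simulated tiles, with a set spread between libraries that was not fitted to the domain. The permutation tests, Fisher's exact test and the tests of single CpGs were not simulated.

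Levels were compared by exact permutation of the 5 libraries, and tiles and CpGs with edgeR 4.0.16 (3 residual degrees of freedom after fitting each library and the genotype, Benjamini-Hochberg over all autosomal features). limma 3.58.1 and Fisher's exact test were alternatives, as were higher coverage minimums, other averaging, single strands, the 3 deeper libraries and leaving out each library. limma left out features with the same level in all libraries. Segments, lists and tests were chosen with earlier results of these data known. Every measured segment was named, with up to 3 tiles of most shared CpGs and the 2 CpGs with most reads in the shallowest library. Promoters of other imprinted genes were not analysed here, because an mm9 annotation was not used. RefSeq windows (GRCm38.p6) were matched by symbol: 4 for Gnas and 0 under the name Nespas. None of the 4 was named Gnasxl. RefSeq does list an antisense RNA that overlaps Gnas, under the symbol Gnasas1, and no window of it is shown. R 4.3.3, Python 3.11.15, numpy 2.4.6, pandas 2.3.3 and scipy 1.17.1 were used.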

Additional observations from a re-analysis of the deposited data

How the results depend on the processing

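No paired analysis was possible because the labels number no replicates: the numbers used here only name the libraries and pair none of them. Over the alternatives, 152 values kept their direction and their side of the threshold, 20 turned and 8 counts moved. With the 3 deeper libraries, knock-in minus wild-type turned to 4.58 points in the control region and 2.60 points in the Gnas body. With each library's own positions it was -3.91 points at exon 1A and 0.359 points in the body. It was -0.0139 points at the Gnas promoter on the plus strand and 2.68 points in the body on the minus strand. As the mean over groups of neighbouring CpGs, chosen after seeing the data, it was 0.191 points in the body. The cause was not tested for any of these.

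Leaving out each library in turn gave -8.94 to 2.38 points at the Nesp end, -15.2 to -3.58 in the control region and -5.35 to 27.5 at exon 1A. It gave -0.0214 to 0.103 points at the promoter and -3.53 to 2.92 in the body, which turned to 2.92 points without wild-type 1 and 1.50 without knock-in 3. Of the 9 tiles, 0 to 1 then had knock-in above and 0 to 4 below wild-type without overlap, with fewer samples to overlap. The 4 appeared without wild-type 2, where wild-type 1 alone stood for its group. The share of all autosomal tiles separated in these reduced sets was not computed, so these counts have no background and show no trend of the domain. Without wild-type 1, tile 174109000 differed by 12.1 points, 174110000 by -18.8, 174122000 by 1.59 and 174155000 by -0.0327. Without knock-in 3, 174110000 differed by -5.45 and 174122000 by 0.679 points. Tile 174153000 differed by -5.42 points without wild-type 2 and -0.0387 without knock-in 2. Ranges were -46.96 to 12.1, -18.8 to 20.5, -13.6 to 1.59, -5.42 to 27.5 and -0.0327 to 0.10003 points for tiles 174109000, 174110000, 174122000, 174153000 and 174155000.

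Fisher's exact test on pooled reads called 6 of 93 CpGs where edgeR called 0, against 3.11% of all CpGs by Fisher's exact test. With at least 20 reads, 2 of the 4 tiles left were at 20 to 80%, against 3.69% of all; the Nesp end and the body then had no shared CpG. Depth limits every level here: exon 1A was read through 4 neighbouring CpGs, and wild-type 1 had a median of 16 reads.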
